A study of Mus musculus with 6 samples.

Results

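The genes described are the deubiquitinases and ubiquitin ligases of mouse aortic smooth muscle cells in which Sirt6 had been knocked down. They were taken by a rule on gene symbols. The rule reads no measured value, but it was set with earlier results of these data known. It takes every listed gene of the USP, OTU or UCH deubiquitinase families, the cullins, the F-box (Fbxl, Fbxo, Fbxw) and Klhl substrate adaptors, the HECT and HERC ligases, the RNF proteins, the UBR ligases, and the MARCH, SIAH and CBL symbols, leaving out Usp18. The rule found 130 of the 7384 genes in the deposited tables, and 129 of these passed the filter on low values (3 or more libraries at 10 or above). The mouse annotation (GENCODE vM21) holds 321 protein-coding genes that the same rule would take, and those outside the tables were not analysed here. The symbols cover more than enzymes. Cullins, F-box and Klhl proteins are parts of ligase complexes, Usp39 is a splicing factor without protease activity, Usp6nl acts on Rab GTPases, and Cbln2 is a secreted synaptic protein that shares 3 letters with the Cbl ligases.

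Vascular smooth muscle cells were isolated from mouse aorta and cultured, and RNA was sequenced from 3 siSirt6 and 3 Control samples taken at 48 h. The siSirt6 cultures received a small interfering RNA against Sirt6, which encodes an NAD-dependent deacylase of chromatin and other proteins. What the Control cultures received, the mouse strain and age, and whether samples of a group came from separate animals or cultures were not stated in the labels, so the spread between samples may be technical. The values are normalised read counts, that is, reads per gene divided by one factor per library.

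Ubiquitin is a small protein that is joined to other proteins by a chain of enzymes: an activating enzyme, a conjugating enzyme and a ligase, the last of which picks the substrate. HECT ligases carry ubiquitin on their own cysteine before passing it on, RING ligases bring the conjugating enzyme to the substrate, and cullin-RING ligases are assembled from a cullin scaffold, a RING protein and an exchangeable adaptor such as an F-box or Klhl protein. Deubiquitinases take ubiquitin off again, and chains that remain can send a protein to the proteasome, to the lysosome or into a signalling complex. In smooth muscle, ligases of this kind act on TGF-beta receptors and SMAD proteins, ion channels and growth factor receptors.

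Sirt6 was first looked at as a check of the labels. Its normalised read counts were 251.8, 257.0 and 270.4 in Control against 44.5, 59.8 and 63.5 in siSirt6, a fall to 0.215 of the Control level with a log2 fold change of -2.21 ± 0.141 (SE). The listed genes took between 14458847 and 15526399 reads per library. Of 10 smooth muscle markers 7 were in the tables, all with reads in every library, 6 higher and 1 lower. Acta2, Myh11 and Cnn1 were among the higher ones and Smtn fell to 0.813. The summed level, most of it Acta2 (from 58253 to 96836), was 64646 to 64863 in Control and 104420 to 105520 in siSirt6. The other 6 were far below Acta2, with Control means of 2817 for Smtn, 1535 for Lmod1, 926.9 for Actg2, 595.3 for Myh11, 428.1 for Cnn1 and 178.7 for Tagln. Endothelial markers were present at a lower sum, 2998 to 3238 in Control and 4535 to 4688 in siSirt6, most of it Flt1 (from 1998 to 2557). Of 14 such markers 11 were in the tables, all 11 higher and none at 0. Of 15 macrophage and leukocyte markers 3 were in the tables (sums of 1777 to 1822 and 1978 to 2018, most of it Lyz2, from 1498 to 1616). Of 11 adventitial fibroblast markers 10 were, 4 higher and 6 lower (sums of 103010 to 103670 and 88149 to 89618). Most of the fibroblast sum was Gsn, which went from 72100 to 57433. Serpinf1, Ly6a, Pdgfra and Col14a1 had Control means of 11021, 8758, 4568 and 2944, above every smooth muscle marker but Acta2. The remaining fibroblast markers were lower, down to Pi16 at 234.1. The strongest fall in this list was that of Scara5, to 0.331, and the strongest rise that of Dpt, 1.64-fold. The part of these shifts in the results that follow was not tested, and in cultures sequenced in bulk a change in the number of cells of a type and a change in RNA per cell cannot be told apart.

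Most of the ubiquitin genes were lower after knockdown. Of the 129 tested, 96 fell and 33 rose in siSirt6 (limma on log2(value + 1), adjusted p below 0.05 over all 7179 genes tested). The tables hold almost only genes that differ: 99.8% of all genes tested passed in either direction, so that passing is no result about these genes, but the directions were even over all genes, with 49.3% lower and 50.5% higher, against 74.4% lower and 25.6% higher among the ubiquitin genes. The median log2 fold change was -0.26, beside 0.08 over all genes tested. The summed values of the members went from 123700 ± 746 to 112710 ± 648, and their share of all listed values from 0.878% ± 0.0066 to 0.737% ± 0.0013 (SD, n = 3). On the values as deposited, the changes were small in size. At least 1.5-fold was reached by 17 of the 129 (13.2%, 12 lower and 5 higher), against 23.0% of all genes tested, and at least 2-fold by 4, Uchl1, Usp33, Hectd2 and Rnf227, against 7.72% of all genes. The groups did not overlap for 124 members (96.1%, with 96.8% over all genes); for Fbxl16, Hectd3, Rnf181, Rnf8 and Usp21 they did. The median coefficient of variation between libraries was 4.08% in Control and 4.56% in siSirt6.

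**Figure D1:**
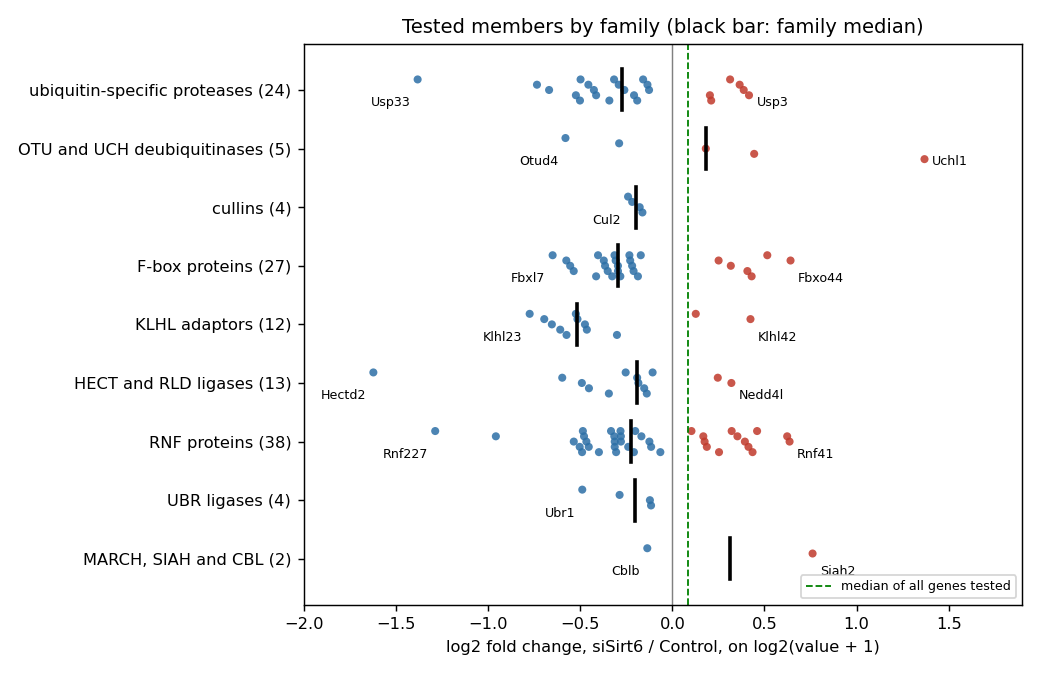
Log2 fold change (siSirt6 over Control) of the 129 tested genes by family, 1 dot per gene, red for higher and blue for lower, with the family median as a black bar, the number tested in brackets and the strongest rise and fall named. The medians of 7 families lie below 0, and the 12 Klhl genes have the lowest at -0.52, while the median of all genes tested (green dashes) is 0.08.

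Transcript length and base composition moved with these changes. Across all genes tested, which are not independent replicates, longer transcripts were lower (Spearman's rho -0.43 with the length of the longest annotated transcript), and the ubiquitin genes are long, with a median of 4285 nt against 3384 nt. Among the 128 with a length, rho was -0.24 with length and 0.42 with the GC content of the transcript. Above 5000 nt, 80.5% of 41 members were lower, close to the 77.9% of all genes of that length. Between 3000 and 5000 nt, 51 of 60 members were lower against 57.9% of all genes, and at 3000 nt or less 40.7% of 27 members were against 26.8%. A smooth trend on length and GC content was then removed from every library, here called length and GC adjustment. After it 56 members were lower (43.8%), 32 higher (25.0%) and 40 not called. Over all genes 37.0% were lower and 37.7% higher (74.6% either way). The median was -0.10 for the members beside 0.00 over all genes. Of the calls made before it, 81 kept their direction and passed, 56 of them falls and 25 rises, and 7 passed in the opposite direction. Values after this adjustment are given beside most of the named genes whose call or direction it changed. Scaling each library to its total over the listed genes lowered the median log2 fold change of all genes, which fell by 0.12. With this scaling 20 members were higher (15.5%), 96 lower (74.4%) and 13 not called. Over all genes 37.7% were higher and 49.7% lower (87.4% either way). At least 1.5-fold was then reached by 33 members (25.6%), near the 26.3% of all genes. The smaller share of such changes among the members therefore depended on the scaling. Adjusting p over all annotated genes left 31 members higher and 83 lower, beside 45.9% and 44.4% of all genes (90.4% either way).

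**Figure D2:**
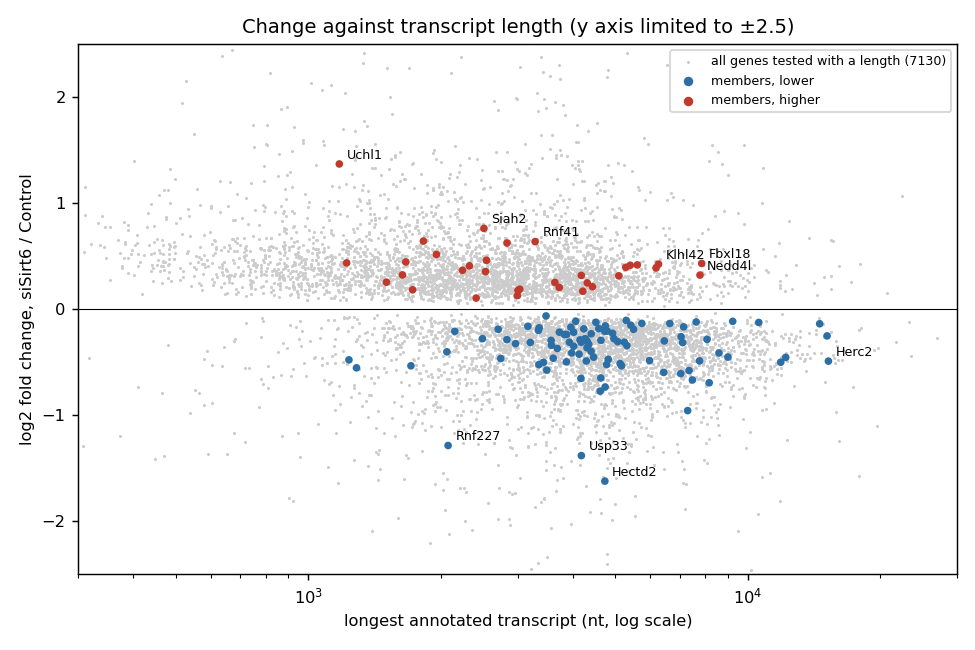
Log2 fold change (siSirt6 over Control) against the length of the longest annotated transcript (log scale, nt) for 7130 genes tested, in grey, and 128 ubiquitin genes, in red where higher and blue where lower. Of the 128 members, 95 lie below 0; Uchl1, at 1177 nt, stands highest and Hectd2, at 4731 nt, lowest among them.

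The largest rise was that of Uchl1, a ubiquitin C-terminal hydrolase that is abundant in neurons and also binds free ubiquitin. Uchl1 stood at 713.3, 743.9 and 737.9 in Control against 2063, 1909 and 1715 in siSirt6. All 3 siSirt6 libraries were more than 2-fold above every Control library; the level rose 2.59-fold, from 731.7 ± 16.2 to 1896 ± 174.2 (SD, n = 3) (log2 1.37 ± 0.052 SE, limma adjusted p = 4.33e-20; log2 1.03 after length and GC adjustment). The largest fall among members with a mean of at least 100 was that of Usp33, a deubiquitinase known for acting on receptors such as Robo1 and the beta2-adrenergic receptor. Usp33 stood at 289.8, 266.8 and 296.5 in Control against 106.8, 103.1 and 115.5 in siSirt6, a fall to 0.381 of Control (log2 -1.38 ± 0.11 SE, limma adjusted p = 4.22e-13). The siSirt6 libraries lay close together and far under the lowest Control library.

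Both other genes past 2-fold were low. Hectd2, a HECT ligase, was at 63.4, 46.7 and 56.0 in Control against 17.8, 22.7 and 12.5 in siSirt6, and fell to 0.319 (log2 -1.62 ± 0.262 SE). Rnf227 was at 43.9, 44.8 and 55.0 in Control against 18.8, 24.7 and 14.6 in siSirt6, and fell to 0.404 (log2 -1.29 ± 0.26 SE). The groups did not overlap for either gene, but their standard errors are larger than those of Usp33 and Uchl1. Uchl1, Usp33 and Hectd2 each share exonic sequence with annotated genes of the opposite strand, as do many of the 43 members with some exon overlap. The library kit keeps strand, but the sources used here do not say whether counting used it.

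**Figure D3:**
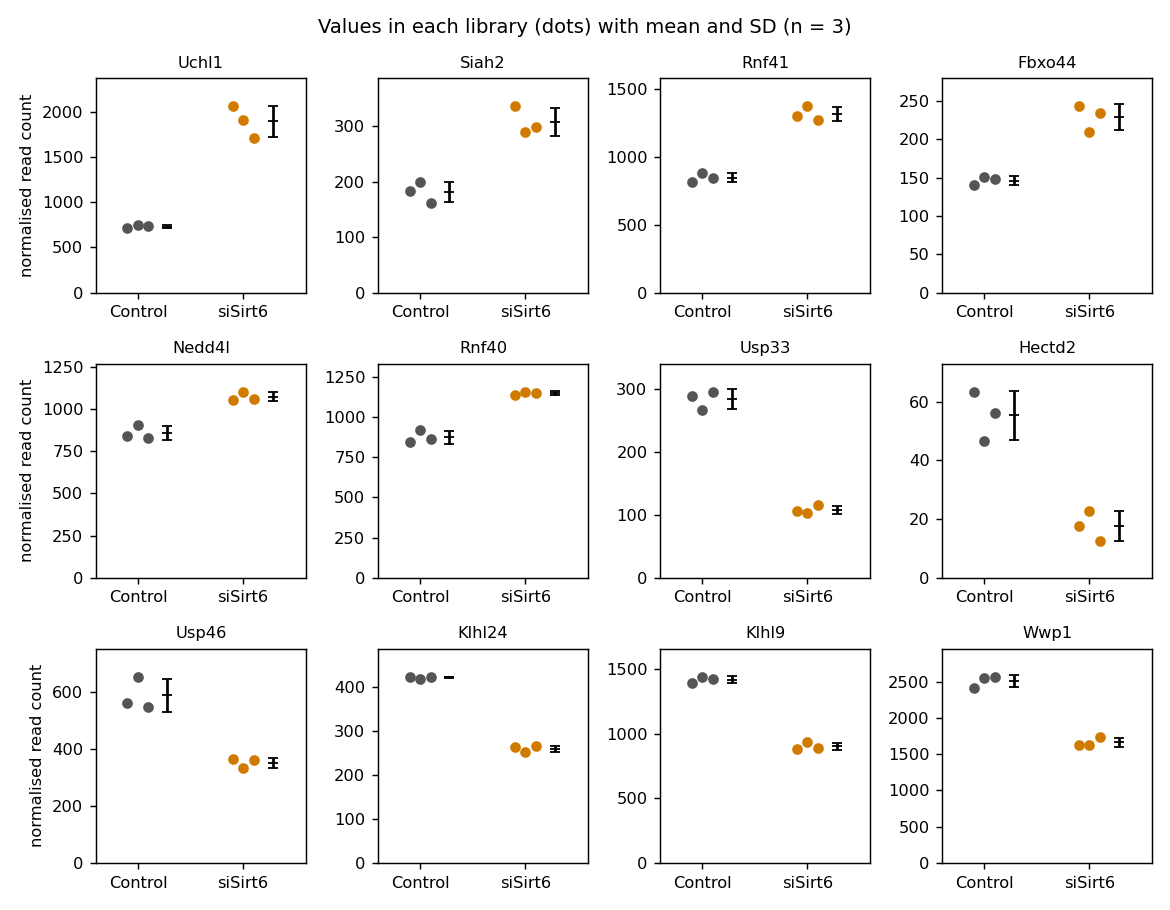
Normalised read counts of 12 of the genes in each library (dots; grey Control, orange siSirt6) with the mean and SD of 3 libraries (black), on axes that start at 0. In all 12 panels the 3 siSirt6 libraries lie wholly above or wholly below the 3 Control libraries: higher for Uchl1, Siah2, Rnf41, Fbxo44, Nedd4l and Rnf40, lower for the other 6. Groups that do not overlap were a condition for naming most of these genes, and 96.8% of all genes tested have them.

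The starts of 6 genes are shown because they belong to genes with some of the larger rises and falls and differ in base composition, and because Fbxo44 and Fbxo2 are neighbours that went opposite ways. Each sequence is the RefSeq window from 250 bases before to 50 after the gene's outermost start on GRCm38.p6, read 5′ to 3′ on the gene's strand. Capitals mark matches on either strand to GGGCGG (GC box), CCGGAAG (ETS site) or the CCAAT box. The TATA box (TATAAA), the E-box CACGTG, the cAMP element TGACGTCA, the AP-1 letters TGANTCA and the NRF1 site were searched as well and are not in these 6 windows.
Uchl1 (chr5:66675871-66676170, plus strand): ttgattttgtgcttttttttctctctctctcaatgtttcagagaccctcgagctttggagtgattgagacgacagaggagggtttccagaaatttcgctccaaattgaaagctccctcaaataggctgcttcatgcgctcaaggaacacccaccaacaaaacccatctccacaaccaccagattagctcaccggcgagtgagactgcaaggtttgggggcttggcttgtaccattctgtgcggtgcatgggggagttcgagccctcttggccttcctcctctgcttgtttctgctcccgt
Rnf41 (chr10:128411366-128411665, plus strand): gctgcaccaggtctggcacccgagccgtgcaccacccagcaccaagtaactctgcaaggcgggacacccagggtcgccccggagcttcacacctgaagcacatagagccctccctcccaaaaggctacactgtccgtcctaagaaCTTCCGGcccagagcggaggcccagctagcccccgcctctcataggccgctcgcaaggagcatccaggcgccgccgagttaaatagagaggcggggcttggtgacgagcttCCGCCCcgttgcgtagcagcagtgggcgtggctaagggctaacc
Usp46 (chr5:74068362-74068661, minus strand): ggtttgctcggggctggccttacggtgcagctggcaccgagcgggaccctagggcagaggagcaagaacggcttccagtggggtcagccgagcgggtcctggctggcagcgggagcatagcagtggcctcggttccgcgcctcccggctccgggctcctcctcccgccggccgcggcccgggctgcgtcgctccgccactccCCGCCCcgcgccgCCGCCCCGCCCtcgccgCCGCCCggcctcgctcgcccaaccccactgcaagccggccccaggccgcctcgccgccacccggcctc
Klhl9 (chr4:88722459-88722758, minus strand): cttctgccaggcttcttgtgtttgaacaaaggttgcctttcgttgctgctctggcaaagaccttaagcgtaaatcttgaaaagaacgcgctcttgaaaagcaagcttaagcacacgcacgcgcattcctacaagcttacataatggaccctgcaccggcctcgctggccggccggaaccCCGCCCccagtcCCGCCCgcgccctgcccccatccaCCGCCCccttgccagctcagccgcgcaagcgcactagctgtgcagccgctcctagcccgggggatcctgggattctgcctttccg
Fbxo44 (chr4:148160045-148160344, minus strand): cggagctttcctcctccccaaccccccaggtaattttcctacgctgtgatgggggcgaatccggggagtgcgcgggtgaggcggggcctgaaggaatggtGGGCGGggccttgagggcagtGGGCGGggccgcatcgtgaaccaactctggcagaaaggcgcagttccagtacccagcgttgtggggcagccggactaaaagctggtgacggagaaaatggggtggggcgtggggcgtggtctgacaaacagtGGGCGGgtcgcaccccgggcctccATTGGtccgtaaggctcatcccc
Fbxo2 (chr4:148160418-148160717, plus strand): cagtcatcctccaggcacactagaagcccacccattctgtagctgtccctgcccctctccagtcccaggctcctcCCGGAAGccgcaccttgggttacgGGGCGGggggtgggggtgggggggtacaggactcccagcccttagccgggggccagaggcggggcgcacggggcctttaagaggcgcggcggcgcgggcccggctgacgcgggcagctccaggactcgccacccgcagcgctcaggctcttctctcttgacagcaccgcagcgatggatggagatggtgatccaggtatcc

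None of the searched letters occurs in the Uchl1 window, which holds 9 CpG dinucleotides, while that of Usp46 has 4 GC boxes and 38 CpG dinucleotides and that of Klhl9 has 3 GC boxes and 22. RefSeq windows were matched for 99 of the 130 members. The 72 members that fell had a median of 29 CpG dinucleotides per window, the 27 that rose had 21, all genes of the tables with a window (5538) had 21, and all 27025 promoters had 7. At the transcript level the order was the other way round, with a median GC content of 46.7% in members that fell and 55.3% in those that rose. A GC box was in 76.4% of windows of members that fell and 70.4% of those that rose, against 66.0% of the genes in the tables and 35.9% of all promoters. The ETS letters were in 20.8% and 29.6%, against 17.9% and 9.14%, and CCAAT was in 25.0% and 37.0%, against 37.7% of the genes in the tables. For the letters not found in the 6 windows, the shares over all promoters were 14.2% for TATAAA, 7.24% for CACGTG, 1.85% for TGACGTCA, 7.92% for TGANTCA and 0.981% for the NRF1 site. Over the genes in the tables they were 7.64%, 10.9%, 3.05%, 5.38% and 2.13% in the same order. These counts describe letters in a window and no binding was measured.

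Among the ubiquitin-specific proteases, 18 of 24 fell and 6 rose, with a median log2 fold change of -0.28. With length and GC adjustment 11 of them were lower (45.8%, beside 37.0% over all genes), 7 higher and 6 not called. Their median was then -0.07. After Usp33 the strongest fall was in Usp46, a deubiquitinase of AMPA receptors and of the phosphatase PHLPP: it went from 588.3 ± 57.7 to 352.3 ± 17.7 (SD, n = 3), to 0.599 of Control. Usp46 stood at 563.0, 654.3 and 547.6 in Control against 363.9, 331.9 and 361.1 in siSirt6, with all siSirt6 libraries under the lowest Control one. Usp6nl, the Rab GTPase-activating protein taken by its symbol, fell to 0.624. Usp25, which trims chains in innate immune signalling, fell from 1035 ± 21.3 to 719.8 ± 30.8 (SD, n = 3), to 0.696, and its paralog Usp28, which stabilises MYC, fell to 0.747. Usp9x, an X-linked protease of endocytic and adhesion proteins, stood at 934.8, 895.7 and 821.9 in Control against 624.0, 557.7 and 696.2 in siSirt6 and fell to 0.708 (log2 -0.50). Its transcript is among the longest, at 11887 nt, and after length and GC adjustment the log2 fold change was -0.09 and no call was made (limma adjusted p = 0.195). The same held for Usp34 (log2 -0.46, and -0.06 after adjustment).

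Several proteases of nuclear proteins fell slightly. Usp7, which keeps MDM2 and p53 stable, was at 1504, 1491 and 1494 in Control against 1405, 1335 and 1283 in siSirt6, a fall to 0.896. The sign of that change depended on the length trend (log2 -0.16, and 0.03 after adjustment). Usp1, the protease of FANCD2 and PCNA, fell to 0.787, Usp11, another enzyme of DNA repair, fell to 0.75, and Usp37 and Usp48 fell to 0.802 and 0.91. Usp37 had no call after adjustment (log2 -0.01). Usp48 had no call after adjustment (log2 0.08) or without Control replicate 2 (log2 -0.11, limma adjusted p = 0.0552). Usp8, which acts on receptors at the endosome, fell from 1311 ± 61.0 to 1072 ± 48.9 (SD, n = 3), and Usp2, a clock-controlled protease, fell to 0.706. Usp19, which is anchored in the endoplasmic reticulum, was the most abundant of this family in both groups by normalised count and fell only from 2260 ± 28.2 to 1956 ± 28.1 (SD, n = 3).

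The 6 rises in this family were all below 1.5-fold. Usp3, a protease of ubiquitinated histones H2A and H2B, rose 1.34-fold, with 233.2, 266.8 and 302.3 in Control and 359.9, 400.0 and 311.2 in siSirt6, so that the groups were set apart by little. Usp53 rose 1.31-fold, with no call from DESeq2 on 5 libraries (log2 0.35, DESeq2 adjusted p = 0.0853), and the splicing factor Usp39 rose 1.29-fold, from 874.6 ± 40.6 to 1127 ± 43.3 (SD, n = 3). Usp22, the protease of the SAGA coactivator complex, rose 1.16-fold and Usp20 1.24-fold. Usp10, which has been reported to stabilise the SIRT6 protein, was at 678.1, 692.3 and 775.5 in Control against 788.1, 816.5 and 864.8 in siSirt6, a small rise (log2 0.20 ± 0.0585 SE, limma adjusted p = 0.00182). The groups of Usp10 did not overlap but lay close together. Under scaling to listed totals the calls of Usp10 and Usp22 were lost (log2 0.09 in each, limma adjusted p of 0.171 and 0.0652).

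Of the 5 OTU and UCH genes, 3 rose and 2 fell. Otub1, which also blocks conjugating enzymes without cutting ubiquitin, was abundant and rose from 2448 ± 78.0 to 2776 ± 63.3 (SD, n = 3), 1.13-fold. After length and GC adjustment its log2 fold change went from 0.18 to -0.06, with no call, and its rise was not called under listed totals (log2 0.06). Otud3 rose 1.37-fold, with Control libraries between 169.0 and 173.7 and siSirt6 libraries between 203.7 and 263.9, and had no call after adjustment (log2 0.20). Otud4, which also binds RNA, was at 741.6, 718.5 and 745.6 in Control against 529.0, 438.1 and 512.0 in siSirt6 and fell to 0.671. Otud1 fell to 0.821.

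All 4 cullins in the tables fell, by small amounts. Cul1, the scaffold of SCF ligases with F-box proteins, fell from 1780 ± 42.8 to 1590 ± 16.2 (SD, n = 3), to 0.893 of Control. Cul2, the scaffold of the VHL ligase, fell to 0.848, with Control libraries at 901.6, 903.5 and 891.4 and siSirt6 libraries at 705.0, 756.7 and 825.3. The DNA-repair scaffolds Cul4a and Cul4b fell to 0.86 and 0.884. After length and GC adjustment, Cul1 and Cul4a still passed (log2 -0.10 and -0.15), and Cul2 and Cul4b did not (-0.08 and -0.07). Cul3, the scaffold that takes Klhl proteins, lies outside the tables and was not analysed here.

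F-box proteins, the substrate adaptors of SCF ligases, fell in 21 of 27 cases and rose in 6, with a median of -0.30. With length and GC adjustment 14 of them were lower (51.9%, beside 37.0% over all genes), 6 higher and 7 not called. Their median was then -0.15. Fbxl7, an adaptor for Aurora A, had the strongest fall on the log2 scale: it stood at 597.2, 622.1 and 607.5 in Control against 401.5, 427.8 and 339.3 in siSirt6, a fall to 0.64 (log2 -0.65 ± 0.0748 SE, limma adjusted p = 2.45e-09). The glycoprotein-binding Fbxo2 fell to 0.68 and Fbxo36 to 0.695, both at counts near 100. Between Fbxl7 and the weakest fall, Fbxo21 at log2 -0.17, lay adaptors with well-known substrates. Fbxo11, an adaptor for BCL6, fell from 1042 to 816.7, and Fbxw11, one of the beta-TrCP adaptors for beta-catenin and IkB, fell to 0.861. Fbxl5, the iron-sensing adaptor for IRP2, fell to 0.878, and that change was 0.00 on the log2 scale after length and GC adjustment.

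The F-box genes that rose were Fbxo44 at 1.57-fold, Fbxo17 at 1.43-fold, Fbxl18 at 1.35-fold, Fbxw9 at 1.33-fold, Fbxl12 at 1.25-fold and Fbxl19 at 1.19-fold. Fbxo44 stood at 140.5, 150.9 and 147.8 in Control against 243.2, 210.3 and 234.2 in siSirt6. Fbxo17, a relative of Fbxo2 and Fbxo44 in the group that can bind glycoproteins, went from 268.9 ± 14.0 to 384.8 ± 22.4 (SD, n = 3). Fbxl18 has a transcript of 7857 nt and a larger rise after adjustment (log2 0.43, and then 0.63). The call of Fbxl12 was lost without Control replicate 2 (log2 0.22, limma adjusted p = 0.0945) or siSirt6 replicate 3 (0.24, adjusted p = 0.0763), and under listed totals, as was that of Fbxl19 there. Fbxo21 lost its call after adjustment (log2 -0.12) and without the same libraries (log2 -0.14 in each, adjusted p of 0.0641 and 0.0509). Fbxl16 had a mean in siSirt6 of 0.629 of that in Control, but its Control libraries ran from 59.4 to 140.5 and overlapped those of siSirt6, and its call was lost without each of 5 of the 6 libraries in turn, all but Control replicate 2 (without Control replicate 1, log2 -0.30, limma adjusted p = 0.164).

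Klhl proteins, the adaptors of Cul3 ligases, had the lowest median of the families, -0.52 over 12 genes, 10 lower and 2 higher. Klhl24, known for keratin turnover in skin, was at 422.5, 419.6 and 424.0 in Control against 263.0, 252.6 and 265.4 in siSirt6, a fall to 0.617. Klhl9, which with Klhl13 directs Aurora B in mitosis, was at 1390, 1442 and 1424 in Control against 879.1, 932.9 and 892.9 in siSirt6, a fall to 0.635 (log2 -0.65 ± 0.0452 SE, limma adjusted p = 1.05e-14). Klhl13 fell with it, to 0.7. Klhl5, which had the highest count of the family in Control, fell from 1869 ± 20.3 to 1354 ± 19.8 (SD, n = 3). Klhl29 fell to 0.656, the actin-binding Klhl2 to 0.7, Klhl20 to 0.721, Klhl17 to 0.671 and Klhl28 to 0.81. Klhl23 had the largest fall on the log2 scale, -0.77 ± 0.215 (SE), at a Control mean of only 60.2 ± 3.17.

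Within the Klhl family Klhl42, an adaptor for the microtubule-severing protein katanin, rose from 352.2, 332.0 and 322.6 to 427.2, 485.5 and 440.2, 1.34-fold, and Klhl26 rose 1.09-fold. The rise of Klhl26 was not called under listed totals (log2 0.01), by DESeq2 on 5 libraries (log2 0.10) or after length and GC adjustment (log2 0.04). After the adjustment, 8 of the 11 Klhl genes with a length were still lower and 1 higher, a median of -0.36, which was again the lowest of the families. Klhl17 has no length in the annotation used. Klhl28 had no call after adjustment (log2 0.03) or without Control replicate 3 (log2 -0.23, limma adjusted p = 0.0754).

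The HECT ligases and HERC relatives fell in 11 of 13 cases and rose in 2. Wwp1, a ligase of KLF and SMAD proteins, fell furthest among the abundant ones: from 2417, 2555 and 2567 in Control to 1621, 1631 and 1730 in siSirt6, 0.661 of Control (log2 -0.60 ± 0.0371 SE, limma adjusted p = 6.31e-16). Herc2, a giant ligase of DNA repair, fell to 0.711, and Itch, a ligase of JunB and Notch, to 0.788. Nedd4, which ubiquitinates growth factor receptors, had by far the highest level of the members, also per length, and fell from 17194 ± 224.5 to 15061 ± 105.9 (SD, n = 3), to 0.876. Its 6 libraries showed little scatter, 16967, 17416 and 17199 in Control against 15056, 15169 and 14958 in siSirt6. The fall was large beside that scatter, but its sign turned after length and GC adjustment (log2 0.04).

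Adjusted for length and GC content, 5 HECT genes were higher, 4 lower and 4 not called. Huwe1, a ligase of MCL1 and MYC whose transcript runs to 14579 nt, fell to 0.909 and then stood higher (log2 -0.14, and 0.22 after adjustment). Nedd4 (-0.19 and 0.04) and Smurf2 (-0.11 and 0.11) changed sign as well, and Herc1 (-0.25 and 0.12) changed sign without a call. Itch (-0.09), Smurf1 (-0.01) and Hectd3 (-0.10) kept their sign and lost the call. Wwp1 (-0.29) and Herc2 (-0.15) stayed lower. The SMAD and receptor ligases Smurf1 and Smurf2 fell to 0.899 and 0.928 before adjustment; the call of Smurf2 was lost with p adjusted over all annotated genes (limma adjusted p = 0.0626).

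The 2 HECT genes that rose were the close relatives of 2 that fell. Nedd4l, which removes sodium channels from the membrane, was at 842.1, 904.5 and 828.6 in Control against 1053, 1103 and 1058 in siSirt6, a rise of 1.25-fold, and Wwp2, a ligase of OCT4 whose gene hosts the microRNA miR-140, was at 677.2, 586.1 and 588.2 in Control against 769.3, 708.2 and 716.0 in siSirt6, a rise of 1.18-fold. Both stood higher in all 3 siSirt6 libraries. The call of Wwp2 was lost under listed totals (log2 0.13, limma adjusted p = 0.0550) and with DESeq2 on 5 libraries (log2 0.18, DESeq2 adjusted p = 0.058).

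RNF genes, most of them RING ligases, were the largest family, with 25 of 38 lower and 13 higher and a median of -0.22. With length and GC adjustment 14 RNF genes were lower (36.8%, beside 37.0% over all genes), 8 higher and 16 not called. Their median was then -0.09. Rnf41, also called Nrdp1, which lowers ErbB3 and other receptors, had the clearest rise: 817.7, 880.2 and 848.0 in Control against 1305, 1375 and 1278 in siSirt6, 1.55-fold (log2 0.64 ± 0.0478 SE, limma adjusted p = 9.32e-14). The change was the same size after length and GC adjustment (0.63). Rnf26, a ligase of the endoplasmic reticulum that positions endosomes, rose 1.56-fold, with siSirt6 libraries spread from 175.2 to 264.3. Rnf121 rose 1.37-fold and Rnf40, part of the histone H2B ligase, 1.31-fold, from 873.9 ± 39.8 to 1148 ± 10.3 (SD, n = 3).

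Rnf44 (to 0.712), Rnf103 (to 0.706) and Rnf144a (to 0.69) had the strongest falls on the log2 scale of the RNF genes with a mean of at least 100 (log2 -0.49, -0.50 and -0.54), with Rnf24 next (log2 -0.49, to 0.711). Rnf44 stood at 1585, 1614 and 1702 in Control against 1247, 1127 and 1118 in siSirt6. Rnf165, a ligase of BMP signalling in neurons, fell to 0.518 at a Control mean of 50.2 ± 6.84. Of ligases at DNA breaks, Rnf168 fell from 431.3, 483.9 and 471.3 to 338.2, 330.9 and 341.3, 0.729 of Control. Rnf169 fell to 0.89 (log2 -0.17, and 0.08 with no call after adjustment), and Rnf8 rose 1.33-fold with groups that overlapped (77.3 to 106.4 in Control and 103.0 to 128.6 in siSirt6). The call of Rnf8 was lost without Control replicate 3 (log2 0.32, limma adjusted p = 0.0616), when siSirt6 replicate 1 was left out (0.35, limma adjusted p = 0.0557), under listed totals, over all annotated genes and in both count tests.

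Rnf2, the catalytic subunit of Polycomb repressive complex 1, fell from 614.0 ± 55.8 to 492.3 ± 24.3 (SD, n = 3), to 0.802. Rnf4, which reads SUMO chains, fell to 0.917, and the sign of this change turned after length and GC adjustment (-0.12 and 0.06). Rnf111, also called Arkadia, a ligase that enhances TGF-beta signalling by removing SnoN, fell to 0.824 and Rnf146, which destroys axin, to 0.76; after adjustment neither was called (log2 -0.08 and -0.21). Rnf5, a ligase of the endoplasmic reticulum, fell to 0.727 with a wide spread, 281.8, 246.4 and 384.0 in siSirt6. Rnf10 had the smallest change of all members, a fall to 0.956, between replicates that differ little, from 5564 ± 49.3 to 5319 ± 113.6 (SD, n = 3). Its call was lost without Control replicate 3 (log2 -0.06, limma adjusted p = 0.0553) and when siSirt6 replicate 3 was left out (-0.05, limma adjusted p = 0.0782).

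All 4 UBR genes in the tables fell. Ubr1, which reads N-terminal degradation signals, went from 432.3, 443.0 and 447.1 to 305.6, 314.4 and 321.6, 0.712 of Control. Ubr3 fell to 0.82, and Ubr2, which reads the same kind of signal, fell to 0.919. The transcripts of Ubr1, Ubr2 and Ubr3 run from 7633 to 8081 nt. After length and GC adjustment Ubr1 stayed lower (-0.18), Ubr2 stood higher (0.12) and Ubr3 was not called (0.02). Of all 4 UBR genes, 2 were then higher, 1 lower and 1 not called, with a median of 0.07. The call of Ubr2 was also lost without Control replicate 3 or siSirt6 replicate 1 (log2 -0.10 in each, limma adjusted p of 0.0560 and 0.0537), over all annotated genes and with DESeq2 on 5 libraries.

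Siah2, a RING ligase of the hypoxia response that destroys prolyl hydroxylases, was at 183.4, 198.6 and 161.3 in Control against 335.2, 288.6 and 297.6 in siSirt6. It had the second highest log2 fold change of the members: it rose 1.7-fold, from 181.1 ± 18.8 to 307.2 ± 24.7 (SD, n = 3) (log2 0.76 ± 0.101 SE, limma adjusted p = 4.02e-08). Cblb, a brake on receptor signalling, fell from 1087, 1090 and 1117 to 1009, 1003 and 985.5, 0.91 of Control, and stood higher after length and GC adjustment (-0.14 and 0.13). Cbln2, the synaptic protein, was the member left out by the filter, at 3.90, 1.95 and 0.966 in Control and 9.89, 13.4 and 8.33 in siSirt6.

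Several members that share a complex, a substrate or a close sequence went opposite ways. A ratio of 2 genes within a library does not depend on how the library was scaled, so ratios are given for them; the pairs were picked with their values in view, and with 3 against 3 libraries an exact permutation test could not go below p = 0.1. Rnf20 and Rnf40 form a heterodimer that ubiquitinates histone H2B. Rnf20 fell to 0.808 and Rnf40 rose 1.31-fold, and the ratio of Rnf40 to Rnf20 counts went from 0.906 ± 0.06 to 1.47 ± 0.068 (SD, n = 3). The ratio of Wwp2 to Wwp1 went from 0.246 ± 0.029 to 0.441 ± 0.031 (SD, n = 3), and that of Nedd4l to Nedd4 from 0.0499 ± 0.0019 to 0.0711 ± 0.0014 (SD, n = 3). Rnf19b rose 1.28-fold and its relative Rnf19a fell to 0.824, the latter with no call after adjustment (log2 -0.12). Usp8 deubiquitinates and stabilises Rnf41, and the Rnf41 to Usp8 ratio went from 0.648 ± 0.039 to 1.23 ± 0.093 (SD, n = 3). Rnf8 acts upstream of Rnf168 at DNA breaks, and their ratio went from 0.195 ± 0.045 to 0.352 ± 0.043 (SD, n = 3). The groups did not overlap in any of these 5 ratios. For single genes the groups did not overlap in 96.8% of all genes tested, and these pairs were picked as opposed. Their separation is therefore no further result.

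Other related genes moved in parallel. The ratio of Cul4b to Cul4a was 0.45 ± 0.028 in Control and 0.462 ± 0.016 in siSirt6 (SD, n = 3) and that of Usp28 to Usp25 was 0.202 ± 0.018 in Control and 0.218 ± 0.041 in siSirt6 (SD, n = 3), with overlapping groups in both. The ratio of Smurf2 to Smurf1 was 0.756 ± 0.014 in Control and 0.781 ± 0.011 in siSirt6 (SD, n = 3), with groups that lay next to each other without overlap.

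**Figure D4:**
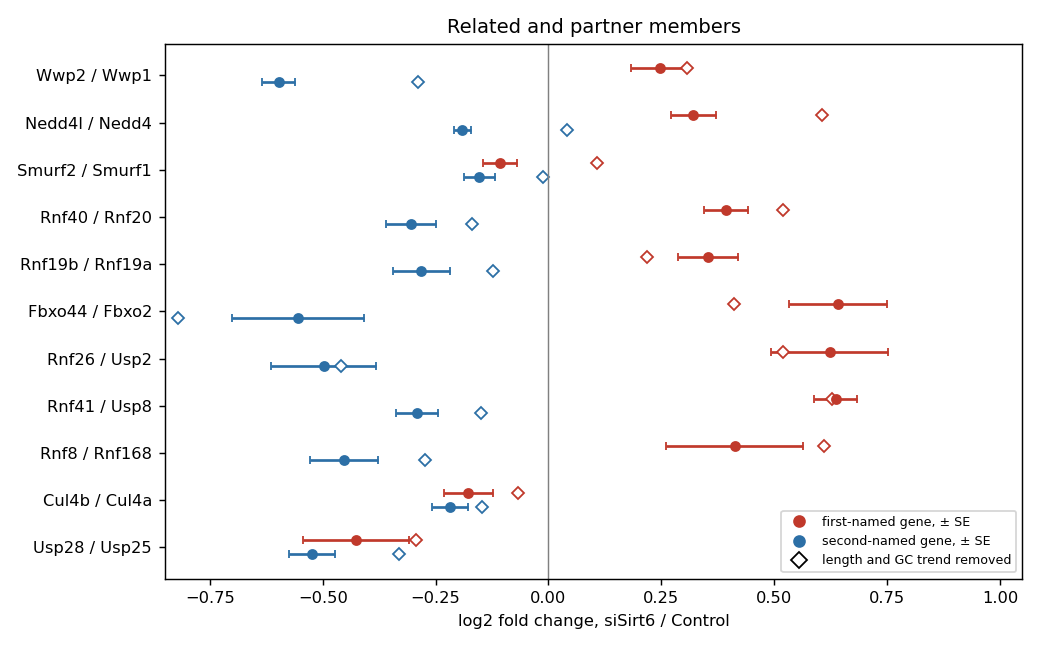
Log2 fold change (siSirt6 over Control) of 11 pairs of members, the first-named gene in red and the second in blue, with standard errors, and the same value after length and GC adjustment as open diamonds. In 8 pairs the first gene is above 0 and the second below it; open diamonds keep that arrangement in 7 of these, and that of Nedd4 moves to 0.04.

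Some opposed members are neighbours in the genome. Fbxo44 and Fbxo2 lie on chromosome 4 with 139 bp between their annotated ends, and the outermost RefSeq starts are 574 bp apart on opposite strands; the first rose 1.57-fold and the second fell to 0.68. Fbxo2 went from 131.7, 119.8 and 114.9 to 74.2, 81.4 and 93.7. Usp2 and Rnf26 lie on opposite strands of chromosome 9 with 4 bp between their annotated ends, and fell to 0.706 and rose 1.56-fold. Both share exons with other annotated genes, among them Gm49380, so part of their reads could belong to a neighbour. On the same chromosome Herc1 fell and Usp3, 5862 bp further on, rose. Usp37 and Rnf25, 49464 bp apart on chromosome 1, went to 0.802 and 1.19 of Control, and Rnf25 had no call after adjustment (log2 -0.02) or under listed totals. After adjustment Fbxo45 and Rnf181 had no call (log2 -0.19 and 0.00). Neighbours also moved together: Fbxo45 and Rnf168 on chromosome 16 and Klhl23 and Ubr3 on chromosome 2 fell, and Usp39 and Rnf181 on chromosome 6 rose, the latter with overlapping groups and no call under listed totals or without Control replicate 2 (log2 0.06, limma adjusted p = 0.0739).

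Levels were compared between genes per 1 kb of the longest annotated transcript, which need not be the one expressed. Nedd4 was highest, at 3127 normalised reads per kb in Control and 2739 in siSirt6. Rnf10 (1601 and 1530), Rnf181 (1509 and 1619) and Otub1 (1417 and 1606) followed in Control, with Rnf126 (731.5 and 915.0) and Uchl1 (621.6) next. In siSirt6, Uchl1 stood at 1611 per kb, level with Otub1 and Rnf181. The mean counts of the 129 tested members over 6 libraries ran from 33.6 (Rnf227) to 16128 (Nedd4) with a median of 593.3, and 5 of them had a mean under 100.

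The rest of the ubiquitin system in the tables did not follow one pattern. Of 48 other ubiquitin ligases, 39 fell (81.2%, beside 49.3% of all genes tested) and 9 rose, with a median log2 fold change of -0.31, near that of the members. With length and GC adjustment 23 of the 48 were lower (47.9%, beside 37.0% over all genes), 8 higher and 17 not called. Their median was then -0.13. Trim9, a ligase of neurons, fell to 0.374, from 361.0, 427.4 and 366.0 to 135.5, 149.5 and 146.7, and Rmnd5a, of the CTLH ligase, to 0.561, while Trim16 rose 1.5-fold and Ube3b 1.42-fold. Of 13 other deubiquitinases 7 fell and 6 rose, among them Vcpip1 (to 0.753) and Pan2, a deadenylase subunit (to 0.799), neither called after adjustment (log2 -0.02 and -0.16), Desi1 (1.4-fold) and the translation factor subunit Eif3f (1.36-fold). With the adjustment 2 of these 13 were lower, 3 higher and 8 not called. The proteasome was wholly on the other side. All 40 proteasome genes in the tables rose, with a median of 0.25, among them the lid subunits Psmd7 (1.53-fold) and Psmd8 (1.51-fold), and their summed values went from a range of 80624 to 82543 in Control to 98995 to 100300 in siSirt6. Once adjusted for length and GC content 25 proteasome genes were higher and 4 lower, and under listed totals 29 were higher and none lower.

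Other cullin-RING ligase genes, a list of core parts, substrate adaptors and receptors, and regulators, were divided, with 19 of 33 higher and 14 lower (8 and 14 under listed totals). Spop, a substrate adaptor of Cul3, rose 2.02-fold, from 1519 ± 45.8 to 3072 ± 72.9 (SD, n = 3), and elongin B (Elob), which joins substrate receptors to Cul2 and Cul5, rose 1.32-fold. Kctd10, another Cul3 adaptor, fell to 0.673 and the Cul4 receptor Dcaf7 to 0.736. Adjustment moved Elob from 0.40 to -0.05. Of 6 genes of the anaphase-promoting complex, 3 rose, among them Anapc5 (1.17-fold) and Ube2s (1.13-fold, not called under listed totals), and 3 fell, among them Cdc23 (to 0.808) and Anapc1 (to 0.849). Anapc1 changed sign without a call after adjustment (log2 -0.24 and 0.07). Of 21 ubiquitin genes, activating and conjugating enzymes, 11 rose and 10 fell (6 and 10 under listed totals). Cdc34, the conjugating enzyme of SCF ligases, rose 1.37-fold, Ube2h, that of the CTLH ligase, fell to 0.668, and Uba7, which activates ISG15, fell to 0.744. Rps27a, a ubiquitin fused to a ribosomal protein whose near-identical pseudogenes can share its reads, rose 1.7-fold with a wide spread in Control (7650, 5116 and 5260), and its call was lost without Control replicate 2 (log2 0.68, limma adjusted p = 0.0547), Control replicate 3 (0.70, adjusted p = 0.0569) or siSirt6 replicate 1 (0.69, adjusted p = 0.0572). It was lost as well after length and GC adjustment (log2 0.43, limma adjusted p = 0.136) and when all annotated genes entered the adjustment of p (limma adjusted p = 0.132).

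**Figure D5:**
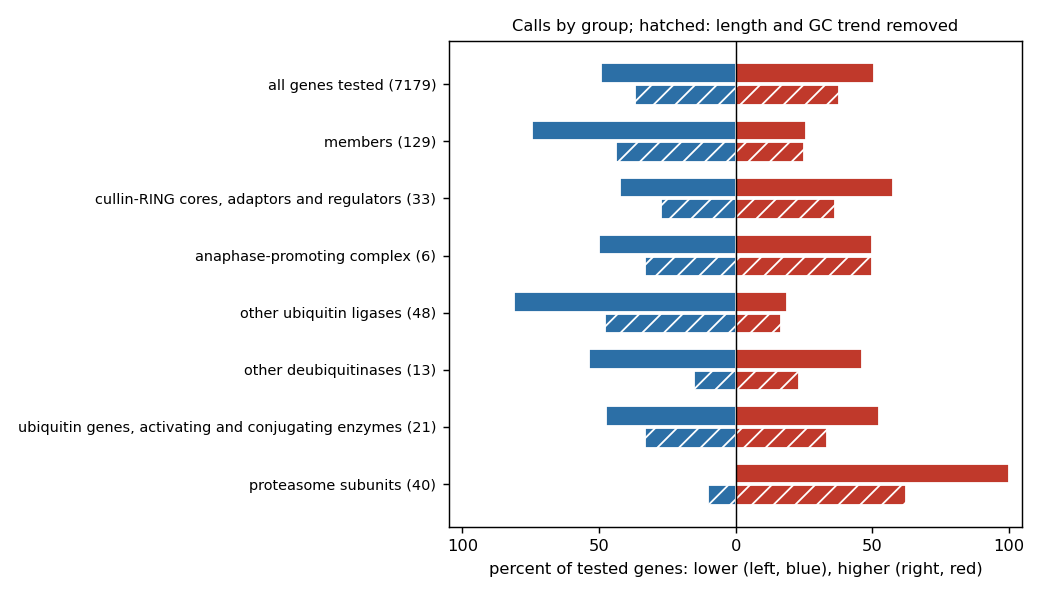
Share of tested genes called lower (blue, to the left) and higher (red, to the right) in siSirt6, in percent, for all genes tested, the 129 members and 6 other lists, with hatched bars for the fit after length and GC adjustment. In the plain bars members and other ubiquitin ligases lean to the left (74.4% and 81.2% lower, beside 49.3% of all genes tested) and all 40 proteasome genes to the right. In the hatched bars 43.8% of members and 47.9% of other ubiquitin ligases are lower, beside 37.0% of all genes, and 62.5% of proteasome genes are higher, beside 37.7%.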

How the data were processed

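Total RNA of 6 samples was made into stranded mRNA libraries, per the labels' protocols. The submitters' processing notes list build mm10 with HTSeq, HISAT2, Trimmomatic and Cufflinks, without roles or order. The deposited signal values were whole reads (100% within 0.02 reads) divided by one factor per library, from 0.961 to 1.04, and the tables hold genes that almost all differ; the sources used here do not say how the authors set factor and filter. limma 3.58.1 in R 4.3.3 (trend, robust, 2-sided) was fitted to log2(value + 1) of the 7179 genes that reached 10 in 3 or more libraries. The comparison was 3 siSirt6 against 3 Control, with Benjamini-Hochberg adjustment over all of these genes and a threshold of 0.05. The fit was first tested on simulated data in which few genes changed. Almost all genes listed here differ, so that trial does not cover calls among such genes. The design named limma for values that are not counts. N-fold changes are ratios of group means, and fold changes on the log2(value + 1) scale understate low genes. Lengths, GC content, positions and exon overlaps came from GENCODE vM21 (GRCm38), where 7331 of 7384 identifiers were found. Promoter windows came from RefSeq.

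Alternatives were pseudocounts of 0.5 and 5, no filter or a mean of 5 CPM, listed totals, TMM, removal of a loess trend (span 0.5) on length and GC content, adjustment over all 55450 annotated genes, a replicate block, each library left out, and edgeR 4.0.16 and DESeq2 1.42.0 on the recovered reads of 5 libraries (siSirt6 replicate 1 did not pass an automatic check of its step). Named were Sirt6, per family the 3 largest rises and falls that passed, had separate groups and averaged 100 or more, every member past 2-fold, 52 members fixed for their roles, of which 34 were in the tables, and per other list the 2 largest rises and falls. Other members were named after their values were seen, and some members are not reported here by name. Members, lists and rules were chosen with earlier results of these data known. Same-numbered samples did not deviate together (correlations -0.02, 0.03 and 0.00).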

Additional observations from a re-analysis of the deposited data

How the results depend on the processing

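Of 33 higher, 96 lower and 17 members changed at least 1.5-fold, with a median of -0.26, listed totals gave 20 higher, 33 past 1.5-fold and a median of -0.38, TMM a median of -0.29, and the length and GC adjustment 56 lower and a median of -0.10. DESeq2 on 5 libraries called 22 higher and 90 lower, edgeR 31 and 96, and adjustment over all annotated genes left 31 and 83. Without 1 library, 31 to 33 were higher, 90 to 95 lower, 16 to 19 past 1.5-fold, and the median was -0.26 to -0.24. Samples shared only a number; with the replicate block 33 were higher, 96 lower and 17 past 1.5-fold. Of the 94 genes picked by the stated naming rules, those that changed sign did so only after length and GC adjustment: Cblb (0.135), Otub1 (-0.0631), Ubr3 (0.022), Ubr2 (0.124), Nedd4 (0.0406), Huwe1 (0.221), Herc1 (0.118), Usp7 (0.0342), Rnf4 (0.0632), Smurf2 (0.109), Elob (-0.0546), Anapc1 (0.0723), C1qb (-0.0238) and Ly6a (-0.0578). A further 11 of the 94 lost their call there, 9 under listed totals, 6 with DESeq2 and 2 with edgeR. The cause was not tested. Over all 128 tested members with a length, 7 passed in the opposite direction after this adjustment and 12 changed sign without a call. Some genes named outside the rules were among the latter, such as Klhl28 (0.0306). The depth of whole libraries is unknown, and tested members under 100 reads (Hectd2, Rnf227, Rnf165, Klhl23, Fbxl16) have standard errors above 0.2 on the log2 scale.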

Other observations

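The symbol rule does not take 4 membrane-bound MARCH ligases, because the tables list them under the newer prefix Marchf; they were noticed after the values were seen. Marchf8, which lowers surface receptors, was at 1334, 1310 and 1342 in Control against 1007, 1052 and 1149 in siSirt6, a fall to 0.805 (log2 -0.32 ± 0.0474 SE). Marchf6, of the endoplasmic reticulum, fell to 0.837, and Marchf9 fell to 0.598 from a Control mean of 104.3. Marchf2 went the other way, from 1262 to 1526, 1.21-fold. After length and GC adjustment the log2 fold changes were -0.18, 0.01, -0.82 and 0.32 in the same order. Usp18, the protease of ISG15 that the rule leaves out, rose 1.71-fold.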
